A study of Mus musculus with 3 samples.

Results

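The data describe 223 regions of mouse liver chromatin that gave a BMAL1 peak but no CLK peak, and that lay at the start of a gene. They were chosen by the peak calls themselves. A peak was included when the deposited peak table classed it as BMAL1 only and placed its centre at most 1000 bp from the start site of its assigned gene. The table holds 2127 peaks, of which 1368 are BMAL1 only, so these promoter peaks make up 223 of 1368. The other 1145 BMAL1 only peaks lay further from a start site. For comparison, 74 peaks with both factors (CLK:BMAL1) and 55 CLK only peaks met the same distance rule.

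Chromatin came from the liver of adult C57BL/6 mice aged 3 to 6 months, with no genetic or drug treatment, under a daily cycle with 12 h light and 12 h dark. It was collected at ZT8, which is 8 h after lights on. Formaldehyde-fixed chromatin was precipitated with an antibody against CLK or one against BMAL1, and an Input library was made with no antibody. All 3 libraries were prepared from a single liver extract, with 1 library per antibody, so no value has a replicate and the whole liver, with all its cell types, was sampled at once. Tests below compare peaks of these libraries with each other and say nothing of the spread between animals.

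BMAL1 and CLK are proteins of the bHLH-PAS family that bind DNA as a dimer, with each partner contacting one side of a short palindrome, the e-box CACGTG. Together they drive the core of the circadian clock and many output genes in the liver, and BMAL1 can also pair with the CLK relative NPAS2. Other bHLH factors, such as USF, MYC and TFE proteins, read the same palindrome. A BMAL1 only peak is a site where no CLK peak was called in this experiment. The peak lists give no CLK signal there, so a weak CLK signal cannot be told apart from none.

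Each e-box is shown in the 30 bases around it for the strongest peaks, because CACGTG is the motif that the CLK:BMAL1 dimer is known to bind. Of the 12 peaks with the highest score, 10 held an e-box within 100 bp of the summit, the point of highest tag density. The sequences were read from the mm9 assembly on the strand of the assigned gene, and capitals mark CACGTG.
Gmfb (chr14:47441907-47441936, minus strand): gccgtccgctgtCACGTGcgggccacggcg
AK154635 (chr6:91549160-91549189, plus strand): ccctcccagcagCACGTGcagcccCACGTG
Fbxo30 (chr10:11000773-11000802, plus strand): acagggctcgggCACGTGaggtggtggcag
Hdgf (chr3:87709932-87709961, plus strand): gttgggacatggCACGTGgtaggggggaca
Ankrd12 (chr17:66426430-66426459, minus strand): gcctgcaggagtCACGTGtccgcccgggtc
March8 (chr6:116288015-116288044, plus strand): tgaccggcgcgtCACGTGaccggtcagtcg
AW549877 (chr15:3945730-3945759, minus strand): ggctCACGTGgtCACGTGgacagggcgggc
Zfp292 (chr4:34830225-34830254, minus strand): cagcgcaccgggCACGTGaccccgccgaac
Rsad1 (chr11:94410282-94410311, minus strand): gcgctttacgtgCACGTGagtgagtagggg
Mthfd1l (chr10:6372790-6372819, minus strand): cacgccccgctcCACGTGcaccgcccgcct

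The highest peak lay at Gmfb, which encodes glia maturation factor beta, a regulator of actin branching. It covered chr14:47441592-47442467, with its centre at position -144.5 bp, where 0 is the start site and negative values lie upstream. MACS, the program that called the peaks, gave it a score of 345.44, which is 10 times the negative log10 of its p-value, with 79 tags and a 23.13-fold enrichment over the local Input. The next, at the transcript AK154635, which has no gene name (chr6:91548827-91549618), had a score of 252.71, 84 tags and a 14.95-fold enrichment, and held 2 e-boxes. Together they had the highest scores of the 223, and their e-boxes lay 6.5 and 12.5 bp from the summit.

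Fbxo30, a substrate receptor of a ubiquitin ligase, had a score of 193.04 with 64 tags at chr10:11000503-11001149. March8, a ubiquitin ligase that acts on membrane proteins, had 170.38 with 48 tags and a 16.77-fold enrichment at chr6:116287717-116288354. Its peak centre lay at -3.5 bp from the start site and its e-box 3.5 bp from the summit, so the start, the summit and the hexamer nearly coincided. The zinc finger gene Zfp292 had 157.91 with a 16.7-fold enrichment.

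The growth factor gene Hdgf had a score of 181.21 with 45 tags, and Ankrd12, which encodes an ankyrin repeat protein, had 178.01 with 72 tags. AW549877 had 160.37 with 43 tags. Rsad1, which encodes a radical SAM protein, had 156.69 with 67 tags. Mthfd1l, the mitochondrial enzyme that makes formate from folate intermediates, had 156.14 with 53 tags, and its peak centre lay 569 bp downstream of the start site, inside the first part of the gene. The remaining peaks of the strongest 12 were Avpi1 and AK017040, which lacked an e-box and are described with the others of that kind.

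**Figure D1:**
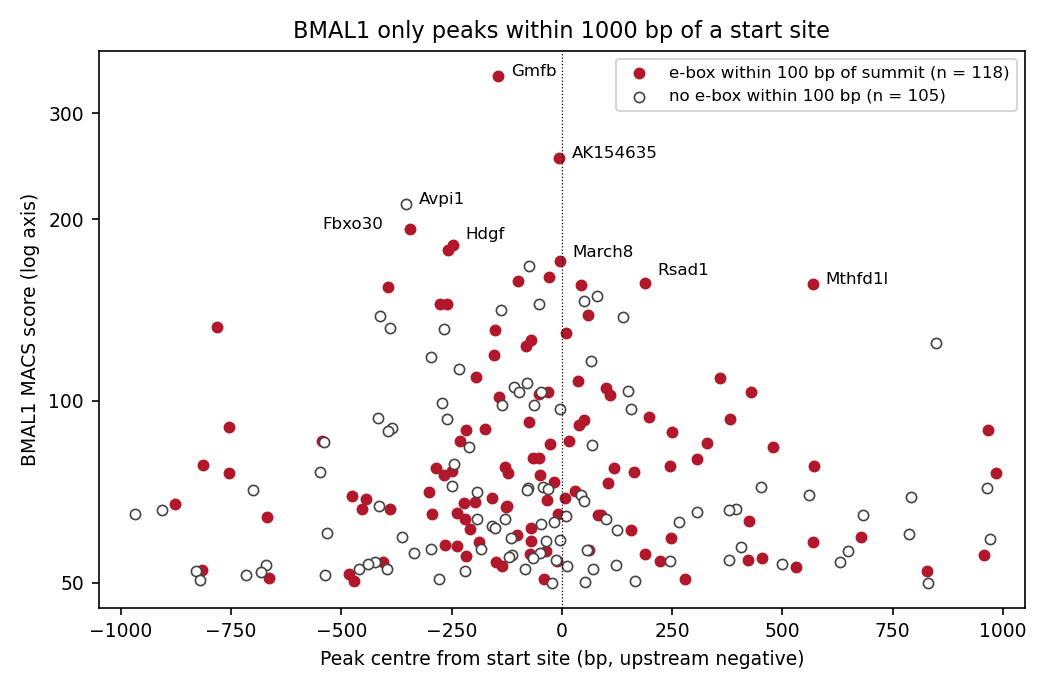
Position of each of the 223 peak centres from the start site of its gene (x axis, bp, upstream negative) against its BMAL1 MACS score (y axis, log scale), with filled points for peaks with an e-box within 100 bp of the summit. Points gather just upstream of the start site, Gmfb and AK154635 have the highest scores at 345.44 and 252.71, and filled and open points both occur upstream and downstream.

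As a group the promoter peaks were moderate in strength. The score had a median of 69.34 (interquartile range 57.3 to 93.6), and ranged from 50.02, just above the calling cutoff at 50, to 345.44. The fold enrichment had a median of 7.14 and a range of 3.78 to 23.13. A peak held a median of 32 tags (14 to 97) over a median length of 557 bp. These values belong to the call that chose the peaks and are given as a description.

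A score of at least 100 was reached by 49 promoter peaks (22.0%), against 14.8% of all 1578 BMAL1 peaks. An FDR of at most 5%, the share of false peaks that MACS estimates by swapping ChIP and Input, was given to 152 (68.2%), against 47.7% of all BMAL1 peaks. The BMAL1 only peaks elsewhere had a median score of 56.72 and 21 tags. In the CLK:BMAL1 promoter peaks the median BMAL1 score was 124.71 and the median BMAL1 fold enrichment 10.9, so the promoter peaks without CLK lay between these classes in strength.

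The peaks next to the limits of the rule had the following values. Just inside the distance limit lay Nanos1 at 985 bp with a score of 76.04, and Loxhd1 at 970 bp with 58.98. Just outside lay Usp2 at 1008 bp, whose score of 144.73 would have placed it among the strongest, and the transcript AK003943 at 1018 bp with 67.96. The peaks of lowest score were AK155877 and a gene given only by its Ensembl identifier, both at 50.02, and Tle1 at 50.18. None of these 3 had an e-box at the summit.

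The distance of the peak centre to the start site was part of the rule and is given as a description. The median distance was 218 bp (interquartile range 78.3 to 415), and 128 peaks (57.4%) lay within 250 bp. Read on the strand of the gene, the median position was -70 bp. Of the 223 centres, 142 (63.7%) were upstream and 81 downstream, and the bin with the most peaks was the last 100 bp before the start site, with 42. Among CLK:BMAL1 promoter peaks 54 of 74 (73.0%) were upstream, a difference of -9.30 percentage points (Fisher's exact test, two-sided, with adjusted p = 0.159 over 3 comparisons, 95% interval of the odds ratio 0.343 to 1.20).

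The gene annotation GENCODE M1 placed 102 summits between genes, 47 in a 5′ UTR, 46 in an intron, 15 in a coding exon, 12 in a non-coding exon and 1 in a 3′ UTR. The e-box share varied little over the 3 largest of these groups, from 43.5% in introns to 55.9% between genes. It was 52.1% upstream and 54.3% downstream of the start site. The sequence at the summits was rich in G and C, with a median of 65.7%, and CpG was near the frequency that this base composition gives (observed over expected 0.826), as is typical of CpG island promoters. At BMAL1 only peaks elsewhere these medians were 51.2% and 0.221.

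At 39 promoter peaks (17.5%) genes of any annotated type started on both strands within 1000 bp of the peak centre, in any arrangement. Examples are Ppat and Paics, which both encode enzymes of purine synthesis, and Hspe1 and Hspd1, the mitochondrial chaperonin pair. Such starts on both strands were present at 7 of 74 CLK:BMAL1 promoter peaks (9.46%). The difference of 8.03 percentage points did not pass the test (Fisher's exact test, two-sided, with adjusted p = 0.159, 95% interval of the odds ratio 0.841 to 5.63). With protein-coding genes alone the counts were 18 and 4, a difference of 2.67 percentage points.

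The question that sequence can answer is whether a BMAL1 peak called without CLK still sits on the e-box of the dimer. Among the promoter peaks 118 of 223 (52.9%, 95% Clopper-Pearson interval 46.1 to 59.6) held CACGTG within 100 bp of the summit. In the same peaks, the stretches of equal total length from 400 to 500 bp on either side held it in 10 (4.48%). The hexamer was at the summit alone in 114 peaks and in the flanks alone in 6 (two-sided exact McNemar test, p = 5.80e-27). Windows of the same size around all 22367 protein-coding start sites held it in 5.57%. The e-box share at the summit was thus above both backgrounds, and the rule had used no sequence.

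The hexamers clustered tightly. In peaks with an e-box the nearest lay a median of 17.5 bp from the summit (interquartile range 8.5 to 38.5), and in 73 of 118 (61.9%) it was within 25 bp. In CLK:BMAL1 promoter peaks the median was 14.5 bp, and in BMAL1 only peaks elsewhere 27.5 bp. Measured from the start site, the nearest e-box had a median position of -61.5 bp and was upstream in 78 of 118 peaks.

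**Figure D2:**
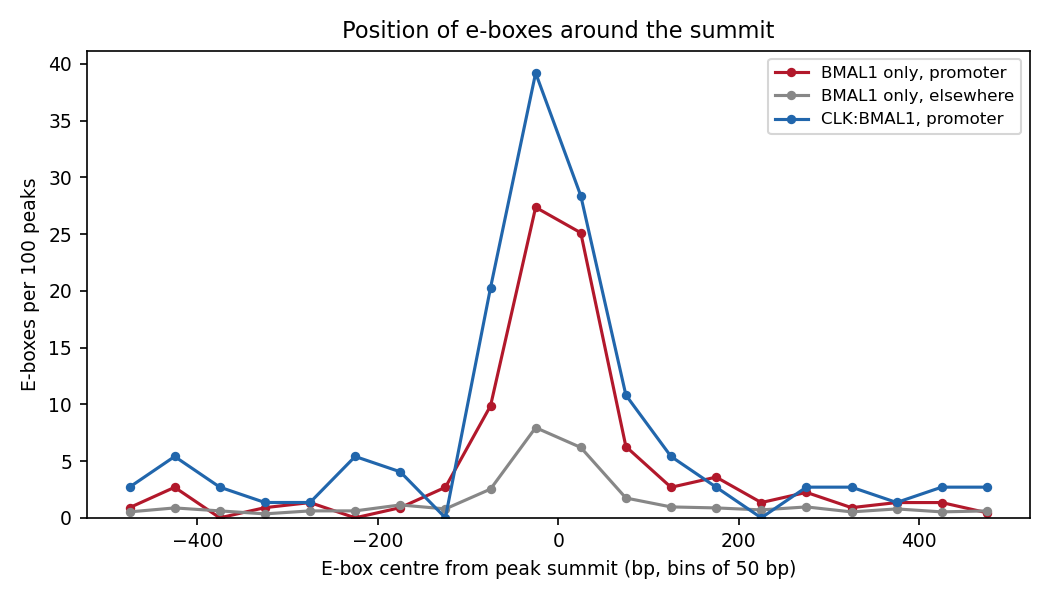
E-boxes per 100 peaks (y axis) in bins of 50 bp by the distance of the e-box centre from the summit (x axis, bp) for BMAL1 only promoter peaks (n = 223), BMAL1 only peaks elsewhere (n = 1145) and CLK:BMAL1 promoter peaks (n = 74). All 3 classes have their maximum at the summit and fall to a lower level by about 150 bp. The promoter peaks lie between the other classes within 100 bp of the summit, and the order varies further out.

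E-boxes were far more frequent at the promoter peaks than at BMAL1 only peaks elsewhere, where 183 of 1145 (16.0%, 13.9 to 18.2) held one. The difference was 36.9 percentage points (Fisher's exact test, two-sided, with adjusted p = 5.82e-29 over 3 comparisons, odds ratio 5.90, 95% interval 4.29 to 8.12). Peaks at promoters were also stronger and richer in GC, and the shares were therefore set side by side within ranges of each. With a score of at least 100 the shares were 61.2% of 49 and 63.0% of 54 (exact p = 1), and with a GC content of at least 60% they were 61.4% of 166 and 56.2% of 73 (exact p = 0.476). Under a GC content of 60% they were 28.1% of 57 and 13.2% of 1072 (exact p = 0.00485). The part of strength and base composition in the difference was not tested beyond these splits, which were added after the data were seen except for the score of at least 100.

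The share rose with the score more steeply away from promoters. At promoters it was 42.0% for scores from 50 to 60, 54.1% from 60 to 80, 61.3% from 80 to 100 and 61.2% from 100 up. Elsewhere the values for the same bins were 10.2%, 19.2%, 27.3% and 63.0%. Under a score of 100 the difference was 36.9 percentage points, with 50.6% of 174 against 13.7% of 1091 (exact p = 1.66e-25). By GC content, the promoter peaks held an e-box in 68.8% of windows with 60 to 70% GC and 52.1% from 70% up, against 7.73% and 8.02% of all protein-coding start sites of that composition.

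**Figure D3:**
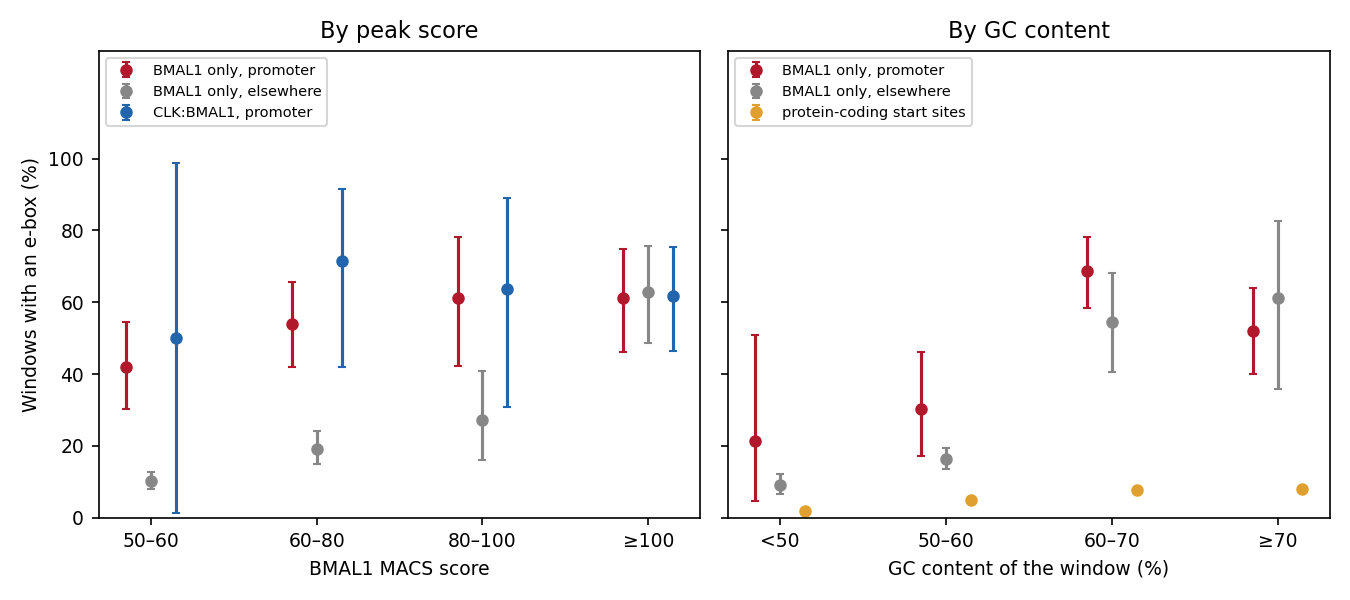
Percent of summit windows with an e-box (y axis) by BMAL1 score (left) and by GC content of the window (right), with bars for the 95% Clopper-Pearson interval. The classes meet near 62% at scores of at least 100, and at a GC content of 60% or more both BMAL1 only classes lie far above the protein-coding start sites.

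The e-box share of BMAL1 only peaks showed no sharp step at the 1000 bp limit, whereas the CpG frequency dropped there. The e-box share of BMAL1 only peaks was 53.0% within 100 bp of the start site, 59.7% from 100 to 250 bp, 50.9% from 250 to 500 bp and 45.0% from 500 to 1000 bp. It was 31.5% from 1000 to 5000 bp, 19.6% up to 50000 bp and 8.98% beyond. The median GC content fell over the same bins, from 70.1% nearest the start site to 50.7% in the last, and the flanks held an e-box in 1.52 to 7.50% throughout. Median CpG observed over expected was 0.891 nearest the start site and 0.620 from 500 to 1000 bp. From 1000 to 5000 bp it was 0.289, and in the last bin 0.187.

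**Figure D4:**
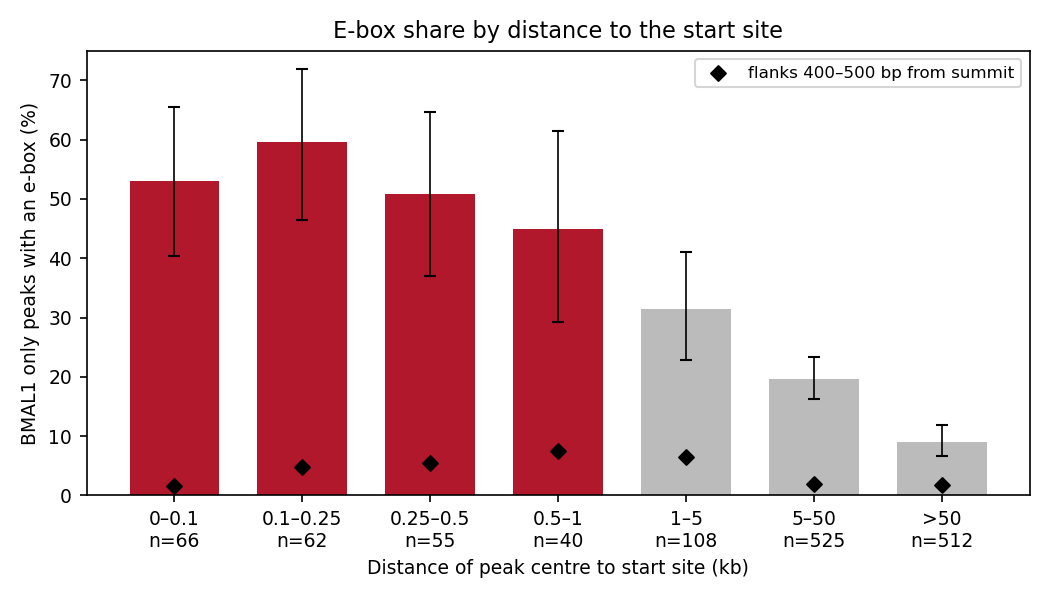
Percent of BMAL1 only peaks with an e-box within 100 bp of the summit (bars, with 95% Clopper-Pearson intervals) by distance of the peak centre to the start site (x axis, kb), with red bars for the promoter peaks and diamonds for the flanks. The share lies between 45.0 and 59.7% in the 4 promoter bins and declines in steps to 8.98% beyond 50 kb.

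Compared with the CLK:BMAL1 promoter peaks, of which 47 of 74 (63.5%, 51.5 to 74.4) held an e-box, the promoter peaks without CLK were lower by 10.6 percentage points (a difference of -10.6). This did not pass the test (Fisher's exact test, two-sided, with adjusted p = 0.137, 95% interval of the odds ratio 0.360 to 1.14), and the interval includes both no difference and a clearly lower share. Windows of the shared peaks were centred on the CLK summit. With their BMAL1 summit used instead, 49 of 74 (66.2%) held an e-box, a difference of -13.3 percentage points. That did not pass either (Fisher's exact test, two-sided, unadjusted p = 0.0580, 95% interval of the odds ratio 0.317 to 1.02). Where both classes had a BMAL1 score of at least 100 the shares were 61.2% of 49 and 61.7% of 47. In the windows under 60% GC, 28.1% of 57 stood against 70.6% of 17 (exact p = 0.0034, unadjusted). The CLK only promoter peaks were lower, at 12 of 55 (21.8%), a difference of 31.1 percentage points (Fisher's exact test, two-sided, with adjusted p = 5.30e-05, odds ratio 4.01, 95% interval 1.95 to 8.81). That comparison lost its call only in windows under 60% GC, at 28.1% of 57 and 13.8% of 29 (exact p = 0.181).

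The bases beside the hexamer were also compared between the classes with and without CLK. The octamer TCACGTGA, the e-box with T before and A after it, was present in 5 of the 118 promoter peaks with an e-box (4.24%, 1.39 to 9.61) and in 8 of 47 CLK:BMAL1 promoter peaks with one (17.0%, 7.65 to 30.8). The difference was -12.8 percentage points (Fisher's exact test, two-sided, with adjusted p = 0.0303 over 3 comparisons, odds ratio 0.218, 95% interval 0.0528 to 0.808). The 5 peaks were March8, Zfp292, Bax, Ddx39 and the channel kinase gene ChaK. Among protein-coding start sites with an e-box, 15.7% of 1245 held the octamer. In BMAL1 only peaks elsewhere it was rarer still, at 3 of 183 (1.64%), so a low share was not particular to promoters. With the BMAL1 summit used for the shared peaks, 7 of 49 (14.3%) held it (Fisher's exact test, two-sided, unadjusted p = 0.0422). The 95% interval of the odds ratio was then 0.0634 to 1.04, which includes no difference. The counts are small, and at a score of at least 100 (the CLK score for shared peaks) they were 4 of 30 and 1 of 10, in the opposite order.

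Counted over all e-boxes and both strands, the base after CACGTG was A in 26.2% of cases at the 151 hexamers of the promoter peaks, C in 29.5%, G in 27.2% and T in 17.2%. In the CLK:BMAL1 promoter peaks A took 38.9% and C 17.4%. In the BMAL1 only peaks elsewhere the values were 20.1% for A, 25.1% for C, 28.2% for G and 26.5% for T. Around protein-coding start sites (1348 hexamers) they were 36.6% for A, 20.7% for C, 30.9% for G and 11.8% for T. Both BMAL1 only classes therefore showed a more even mixture of neighbouring bases than the CLK:BMAL1 promoter peaks, given here as a description. The high share of A in the CLK:BMAL1 promoter peaks was near that of start sites in general.

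The other 105 promoter peaks had no CACGTG within 100 bp of the summit. Of these, 86 held a hexamer that differs from the e-box by 1 base, and 19 held neither. Such hexamers are common in GC-rich sequence. With at most 1 mismatch allowed, 91.5% of promoter peaks and 50.8% of all protein-coding start sites had a match, against 48.9% in the flanks of the promoter peaks. The 5 strongest peaks of this kind and Nampt, from a list of core clock and output genes described below, are shown with the near-match closest to the summit in capitals. The substitution against CACGTG, counted from 1 at the 5′ end of the hexamer, was C3G in Avpi1, A2C in AK017040, T5G in Pfkl, G4A in Hlf, T5G in Ccdc38 and T5C in Nampt.
Avpi1 (chr19:42203683-42203712, minus strand): gcgtggggagggCAGGTGagctgggaggat
AK017040 (chr9:75257920-75257949, plus strand): gaatttccaacgCCCGTGactgcgcgcgcc
Pfkl (chr10:77472492-77472521, minus strand): cacaggcaggcgCACGGGgcggggacaggc
Hlf (chr11:90252197-90252226, minus strand): tcagggcagcggCACATGgactgcctgatg
Ccdc38 (chr10:93003305-93003334, plus strand): aggcgacaggggCACGGGgcagaggctcac
Nampt (chr12:33505041-33505070, plus strand): aggcgcccaggtCACGCGctggggtgacgg

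Avpi1, a gene first described as induced by vasopressin, had a score of 212.16 with 97 tags, the most of any promoter peak. It lay at chr19:42203259-42204412, with its centre at -352.5 bp. AK017040, a transcript beside Mapk6, had 167.6 with 57 tags, and Pfkl, the liver form of the glycolytic enzyme phosphofructokinase, had 149.38 with 73 tags. Ccdc38 had 144.58 with a 14.13-fold enrichment, beside the start of Amdhd1, an enzyme of histidine breakdown. These values overlap those of the strong peaks with an e-box, so high scores were found both with and without an e-box.

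Peaks with an e-box had a median score of 76.04 and those without one 64.81. By number of e-boxes the median was 70.03 in the 90 peaks with 1, 87.3 in the 24 with 2 and 55.86 in the 3 with 3, and the 1 peak with 4 had 109.42, so the score did not rise at each step. Of the near-matches, CACGCG lay above its backgrounds, which were not matched for GC content. At CLK:BMAL1 promoter peaks it was present in 37.8%. It was present in 34 of the 105 peaks without an e-box (32.4%, 23.6 to 42.2) and in 21.2% of those with one, against 5.38% in the flanks of all promoter peaks and 9.63% of start sites. CACGTT was present in 13.3% and 9.32%, against 7.17% in the flanks and 3.21% of start sites.

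Of the other motifs searched on both strands, the GC box GGGCGG of SP and KLF factors was the most frequent, in 58.3% of promoter peaks, against 31.8% in their flanks, 40.0% of start sites and 66.2% of CLK:BMAL1 promoter peaks. It was present in 67.8% of promoter peaks with an e-box and in 47.6% of those without one. CCAAT, the NF-Y motif, was present in 26.5%, near the 27.4% of all start sites. The core TGACG of CREB and ATF factors was present in 27.4%, against 15.7% in the flanks, 18.9% of start sites and 39.2% of CLK:BMAL1 promoter peaks. Sites of ETS factors (CCGGAAGT), YY1 (AAGATGGC) and NRF1 (GCGCATGCG) and the TATA box (TATAAA) were rare, at 0.448%, 0.448%, 1.35% and 2.69%, where start sites had 4.22%, 3.05%, 1.70% and 8.21%. They were rare in the CLK:BMAL1 promoter peaks too, at 1.35%, 1.35%, 1.35% and 0%. The flanks and start sites were not matched to the promoter peaks for GC content. A match is a description of the letters present and not evidence that a factor was bound.

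**Figure D5:**
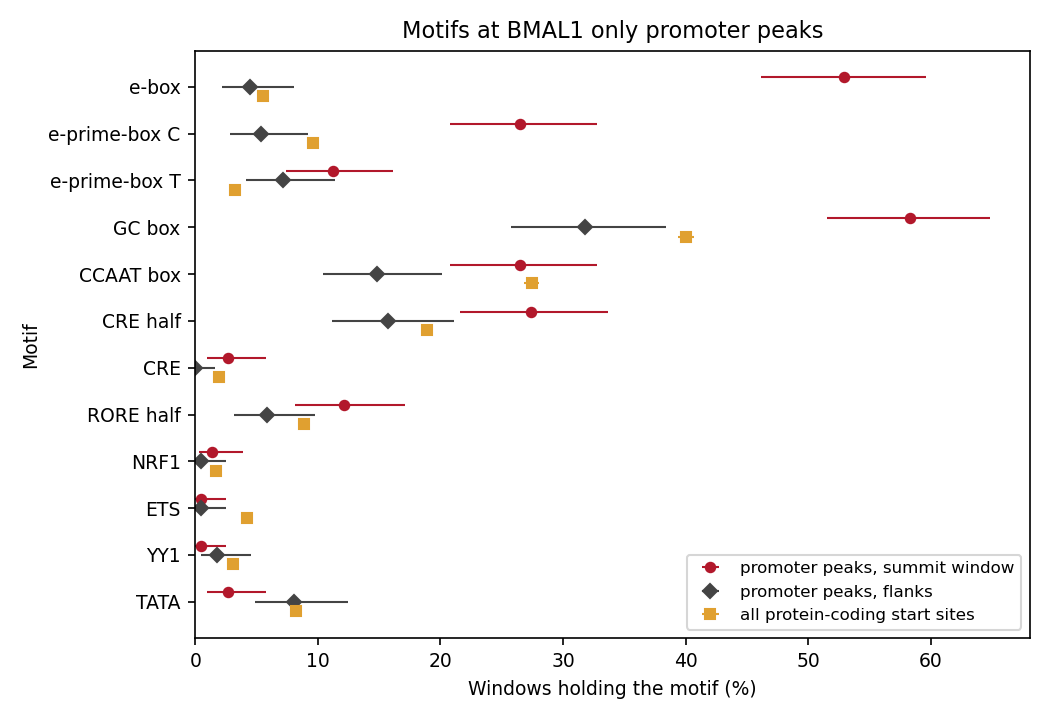
Percent of windows holding each motif (x axis), with 95% Clopper-Pearson intervals, for the summits of the 223 promoter peaks, their flanks and all protein-coding start sites. The e-box stands furthest from both backgrounds at 52.9%, CACGCG (e-prime-box C) and the GC box also lie to the right of theirs, and ETS, YY1 and TATA lie to the left of the start sites.

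More than 1 e-box lay in the window of 28 promoter peaks (12.6%), and 4 of these held 3 or more. Cdk4, the cyclin-dependent kinase that drives entry into S phase, held 4 e-boxes, with a score of 109.42. Bax, a trigger of mitochondrial cell death, Cops7a, a subunit of the COP9 signalosome, and Srm, spermidine synthase, held 3 each with scores of 104.99, 55.86 and 55. Of the strongest 12 peaks, AK154635, Hdgf, Ankrd12, March8, AW549877 and Zfp292 held 2 each. The stretches below, chosen because they lie outside annotated UTRs and show different spacings, carry both e-boxes of the window in capitals.
Hdgf (chr3:87709934-87710041, plus strand): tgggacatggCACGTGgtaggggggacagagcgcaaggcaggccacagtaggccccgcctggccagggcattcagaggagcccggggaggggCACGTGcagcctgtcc
Ankrd12 (chr17:66426415-66426457, minus strand): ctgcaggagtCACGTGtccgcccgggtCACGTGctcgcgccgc
Khdrbs1 (chr4:129419718-129419766, minus strand): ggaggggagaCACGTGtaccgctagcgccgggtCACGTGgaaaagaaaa
Atxn3 (chr12:103196457-103196553, minus strand): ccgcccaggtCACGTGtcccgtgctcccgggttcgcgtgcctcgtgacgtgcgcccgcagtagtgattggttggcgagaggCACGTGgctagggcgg

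Core clock and output genes formed a small group among the promoter peaks. Of a list of 48 core clock and output genes, 6 were assigned to a promoter peak, or 2.71% of 221 genes. The same list held 10 of the 73 genes of CLK:BMAL1 promoter peaks (13.7%) and 10 of the 1072 genes with BMAL1 only peaks elsewhere (0.933%). The 6 were Hlf, Hif1a, Bhlhe40, Nampt, Por and Ppara, and no Per, Cry or Rev-erb gene was among them.

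Hlf, an output transcription factor of the PAR bZIP family, had the highest score of the 6 at 146.4, with 49 tags, at chr11:90251794-90252570. Hif1a, the oxygen-sensitive bHLH-PAS factor, followed at 144.75 with 41 tags and a 13.2-fold enrichment. Bhlhe40, which encodes the e-box repressor DEC1, had 126.04 with 57 tags. The e-box at Hif1a is shown in the whole 201 bp window around the summit, beside that of Bhlhe40. Hif1a and Bhlhe40 were the only clock list genes here with an e-box at the summit.
Bhlhe40 (chr6:108610354-108610383, plus strand): agcgttgtccaaCACGTGaggctcatgtga
Hif1a (chr12:75008660-75008860, plus strand): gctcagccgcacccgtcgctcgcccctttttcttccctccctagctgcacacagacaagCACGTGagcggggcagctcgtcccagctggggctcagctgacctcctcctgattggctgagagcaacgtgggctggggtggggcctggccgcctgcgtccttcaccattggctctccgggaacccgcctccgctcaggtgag

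Nampt, the rate-limiting enzyme of NAD salvage, had a score of 99.32 with 46 tags. Por, which passes electrons to the cytochromes P450, had 90.06 with 48 tags. Ppara, the nuclear receptor of fatty acids in liver, had 53.46 with 30 tags, close to the cutoff. A peak assigned to the transcript AK045688, with a score of 91.23, lay within 1000 bp of an annotated start of Tef, a relative of Hlf that the table did not name there.

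Some of these genes had a CLK:BMAL1 peak at another position. By the table's gene names this held for 5 promoter peaks, namely Hlf, Por, Pim3 and both of Gbe1. At Hlf the shared peak lay 27287.5 bp upstream of the start site with a BMAL1 score of 478.96. At Por it lay 14186.5 bp upstream with 174.41, and at Pim3, which encodes a serine/threonine kinase, 11565 bp upstream with 252.28. At Gbe1, the glycogen branching enzyme, it lay 39163.5 bp downstream with 81.94. Each of these distant shared peaks held an e-box, and none of the 5 promoter peaks did. This contrast was noticed in the values and was not tested. It rests on the assigned gene names, and both Gbe1 peaks were set against the same shared peak. At Bhlhe40 and Klf9, described next, the nearby shared peak was assigned to another transcript. There the promoter peak and the shared peak both held an e-box.

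At Bhlhe40 a shared peak was closer still. It ended 342 bp from the promoter peak, was assigned to another transcript, and had a BMAL1 score of 478.78 and a CLK score of 145.32. The promoter peak there is thus a BMAL1 peak beside a stronger one that CLK shares. A shared peak also lay 4525 bp from the peak at Klf9, with a BMAL1 score of 208.73. At Slc5a6 a CLK only peak with a score of 65.62 lay 204 bp away. Apart from these 3, no promoter peak had a CLK peak within 5000 bp, and the median gap to the nearest CLK peak was 862622 bp.

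The metabolic genes described here and in the next paragraph were put together after the values were seen. Their counts carry no test, and no share of such genes among all genes was computed, so they describe these peaks alone. In sugar and pyruvate metabolism there were 10 peaks at 9 genes, 5 of them with an e-box, with scores from 53.09 to 149.38. Pfkl stood highest, followed by the phosphoglucomutase relative Pgm2l1 at 145.04 and Bsg at 137.66, which encodes basigin, the chaperone of lactate transporters. Gbe1 had 2 called peaks with scores of 103.4 and 66.34, centred at -96.5 and 395.5 bp from its start site. They nearly touched, at chr16:70313948-70314521 and chr16:70314527-70314926, and may be parts of a single region. Pcx, pyruvate carboxylase, had 76.56, Aldoc, an aldolase, 71.48, and Ldha, lactate dehydrogenase A, 68. Brp44l, a subunit of the mitochondrial pyruvate carrier, had 66.32 and Slc16a1, a lactate and pyruvate transporter, 53.09. The median score of the 10 peaks was 74.0, and that of all promoter peaks 69.34.

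Enzymes of folate, purine, polyamine and urea metabolism gave 7 peaks, 5 with an e-box. After Mthfd1l came Slc7a2, an importer of arginine, at 129.39 and Ppat, the first committed enzyme of purine synthesis, at 102.16. Azin1, which protects ornithine decarboxylase from its inhibitor, had 78.5, and Ass1, an enzyme of the urea cycle, 63.68, both without an e-box. Shmt1, the cytosolic serine hydroxymethyltransferase, had 61.13 and Srm 55. In lipid metabolism 4 of 6 peaks held an e-box. Lss, which closes the sterol rings in cholesterol synthesis, had 92.93, Angptl4, a secreted inhibitor of lipoprotein lipase, 80.03, and the phospholipase gene Pla2g6 69.02. Crat, carnitine acetyltransferase, had 56.66, Acat1, an enzyme of ketone metabolism, 54.3 without an e-box, and Ppara has been given above. The e-boxes of a part of these genes are shown to compare their surroundings, with Ldha carrying both of its hexamers.
Ldha (chr7:54101019-54101141, plus strand): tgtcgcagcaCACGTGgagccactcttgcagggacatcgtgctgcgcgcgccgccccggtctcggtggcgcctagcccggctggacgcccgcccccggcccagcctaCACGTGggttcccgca
Slc16a1 (chr3:104443111-104443140, plus strand): ctgaggccgcttCACGTGgtgcactcctgc
Brp44l (chr17:8476215-8476244, plus strand): ctgtgctttccaCACGTGggcagccacact
Shmt1 (chr11:60624663-60624692, minus strand): tggttcccggagCACGTGctgggctgttag
Ppat (chr5:77380112-77380141, minus strand): agcaggtccctcCACGTGctttccgaggcg
Lss (chr10:75994405-75994434, plus strand): catgactgagggCACGTGagtcgcggaccc
Angptl4 (chr17:33918149-33918178, minus strand): gggctgcgcgaaCACGTGgagcgcacccgt

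Of 12 transcription factor genes picked out in the same way, 5 held an e-box. Besides those of the clock list, Nfe2l2, the factor of the oxidative stress response, had a score of 124.91 and a centre 847 bp downstream of the start site, without an e-box. Klf9 had 77.5 and Klf11 66.93, both with an e-box. Hes1, a target of Notch signalling, had 71.12, Tcfap4 69.34 and the homeobox gene Msx1 63.68, all without one. Npas4, a bHLH-PAS factor best known from neurons, had 60.09 without an e-box and Esrra, a nuclear receptor that governs mitochondrial genes, 54.16 with one. Their scores ran from 53.46 to 146.4, with a median of 70.2 beside the 69.34 of all promoter peaks.

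Most genes carried a single promoter peak. The 223 peaks belonged to 221 genes, and only Gbe1 and Agbl5, a carboxypeptidase that trims tubulin tails, had 2. The Agbl5 peaks had scores of 66.05 and 52.71 and no e-box, and lay close together at chr5:31190247-31190697 and chr5:31190788-31191176. At 10 promoter peaks the same gene also had a BMAL1 only peak beyond the limit. At Azin1 there were 3 such peaks, the strongest of them with a score of 129.96, above the 78.5 of the promoter peak.

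Of the other lists, 2 of 78 lysosome and autophagy genes had a promoter peak, Atp6v0b, a subunit of the proton pump, at 92.3 with an e-box and Rragc, a GTPase that signals amino acids to mTORC1, at 56.45 without. Of 107 mitochondrial genes 2 were present, Hspe1 at 107.91 with an e-box and the complex I gene Ndufs7 at 55.16 without. None of the 71 listed genes of protein folding and ER stress was assigned to a promoter peak. The same held for the 111 listed genes of the transcription machinery and chromatin. In the larger set of 1072 genes with peaks elsewhere these lists held 3, 2, 6 and 3 genes in the same order. The lists do not hold every gene of their kind. Taf1c at 77.48 and Polr3e at 71.76, of the transcription machinery, had promoter peaks but were not listed. Neither were the mitochondrial genes Mthfd1l, Brp44l, Pcx and Vdac1 (78.41), or the chromatin genes Whsc1l1 (90.53) and Ehmt2 (75.29). These are examples, so the counts do not measure how common such genes were among the promoter peaks.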

How the data were processed

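BMAL1, CLK and Input libraries from liver at ZT8 (1 each) were analysed from the peaks as deposited. The authors mapped 36 nt reads to mm9 with bowtie, kept uniquely mapped reads and called peaks with MACS for each antibody against the Input (p cutoff 1e-05, band width 80, model fold 5). CASAVA 1.6 is named in the submitters' processing notes. The MACS version is not given in the sources used here. For each peak the deposited lists give the count of tags, a score (10 times the negative log10 of the p-value), a fold enrichment, which is a ratio to the local Input, and an FDR in percent. The authors' table gives each peak's class, gene and distance to the start site. The BMAL1 library held 28920754 tags (25217144 unique), CLK 37371047 (33057959) and Input 18846303 (18206506). Depth sets which peaks were called, and intervals cover counting error only.

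Table peaks were joined to the lists by position. The deposited distance is the start site minus the centre in genome order, checked on 2127 of 2127 peaks, so upstream and downstream were read with the gene's strand. Of the gene names, 5 missing from the table and 1 turned into a number there (March8) were taken from GENCODE M1. At 12 peaks GENCODE M1 has no start within 1000 bp of the summit. Sequences came from NCBIM37, which is mm9. E-boxes were sought in 201 bp windows. For peaks called with CLK the window was set around the CLK summit. Shares were compared by two-sided Fisher's exact tests, with Benjamini-Hochberg adjustment in 2 families of 3, and by an exact McNemar test (Python 3.11.15, scipy 1.17.1, pandas 2.3.3, numpy 2.4.6, matplotlib 3.10.9). The e-box search and the Fisher test were tried on simulated data. The McNemar test and the adjustment were checked only on short typed examples with known answers. The measures of the peak call were not tested, because the rule used them. The named peaks are the 12 of highest score, the 5 strongest without an e-box, those on the clock list, those with 2 or more e-boxes, genes with 2 peaks, peaks at the limits and those on the other lists. Metabolic, transcription factor and further groups, the peaks beside CLK peaks, and peaks at genes with other peaks were chosen after their values were seen. The members and lists were chosen with earlier results of these data known.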

Additional observations from a re-analysis of the deposited data

How the results depend on the processing

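Of 52 values recomputed for 8 results, 40 kept their direction and their side of the 0.05 threshold (unadjusted), 2 kept the direction but lost the call, 4 gained one and 5 changed sign. Of the recomputed values, 10 came from splits added after the data were seen. Against BMAL1 only peaks elsewhere, the e-box difference was -1.74 percentage points at a score of at least 100 and 5.28 at a GC content of at least 60%. Against CLK:BMAL1 promoter peaks it was 8.59 at a score of at least 100 (the CLK score for shared peaks) and 0.0423 at a GC content of at least 60%, and it passed 0.05 with 1 mismatch allowed (-7.17), a 2000 bp limit (-13.2), a score under 100 (-16.7) and a GC content under 60% (-42.5). Against CLK only promoter peaks it was 14.3 at a GC content under 60%. At a score of at least 100 the upstream difference was 4.19 and the TCACGTGA difference 3.33. The median score of the promoter peaks was 83.9 at an FDR of at most 5%. The cause was not tested. Summit against flank kept its call under each of its 4 alternatives, from 40.4 to 55.1 percentage points. No paired analysis was possible because each antibody has 1 library. With 1 library each, none of these values can be checked on a replicate.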

Other observations

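Further groups were described after their values were seen and were not tested. Solute carriers, the membrane transporters of the Slc gene families, gave 9 promoter peaks, and each of the 9 held an e-box at the summit, beside 52.9% of all promoter peaks. Their scores ran from 53.09 at Slc16a1 to 154.38 at the phosphate transporter gene Slc20a1, and 368 genes of this name pattern were annotated. They made up 4.07% of the 221 genes with a promoter peak, 1.77% of the 1072 genes with BMAL1 only peaks elsewhere and 2.74% of the 73 genes with CLK:BMAL1 promoter peaks. A list of 345 ubiquitin ligases and proteases gave 5 promoter peaks, 3 with an e-box, or 2.26% of genes against 1.59% and 2.74% in the same order. A list of 303 kinases and phosphatases gave 5, 3 with an e-box, or 2.26% against 1.31% and 0%. It left out Pim3, ChaK and Mknk1, kinase genes that also had promoter peaks. A list of 464 zinc finger and Kruppel-like factors gave 4, all 4 with an e-box, or 1.81% against 1.59% and 1.37%. The lists are not complete, and no share of them among all genes was computed. Ribosomal proteins gave 0, against 0.373% and 0%.

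Some peaks that scored above 100 stood at genes of cell division and cell death, besides Cdk4 and Bax. They were picked by hand from the strong peaks and are no full list of such genes. Dedd2, an adaptor of death receptor signalling, had 132.56, the kinetochore gene Casc5 132.27, Bnip3, a mitophagy receptor, 105.61 and the apoptosis inhibitor Aven 103.29. Chaperone genes gave Hspe1, the cyclophilin gene Ppia at 63.28 with 2 e-boxes, and Fkbp4, a partner of HSP90, at 54.16 without an e-box.

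Closely spaced e-boxes were counted as an e-box and a hexamer with at most 1 mismatch at most 20 bp apart. The promoter peaks held 54 such pairs, and 11 of them (20.4%) had a gap of 6 or 7 bp. The CLK:BMAL1 promoter peaks held 40 pairs, of which 5 (12.5%) had that gap, and the BMAL1 only peaks elsewhere 14 of 85 (16.5%).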
